A study of Rattus norvegicus with 24 samples.

Results

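Genes of the interferon and NF-kB pathways were followed in the hippocampus of adult rats from lines bred for opposite levels of exploration. Of 7 listed genes, 6 were found by their Ensembl identifiers among the 32883 genes of the count table: Ifit1 (ENSRNOG00000019050), Ifitm3 (ENSRNOG00000015078), Irf3 (ENSRNOG00000043388), Irf7 (ENSRNOG00000017414), Relb (ENSRNOG00000033235) and Nfkbib (ENSRNOG00000020063). Bcl3, the remaining listed gene, had no identifier paired with its symbol in the sources used and was not analysed here. The members were chosen by earlier results on the difference between the lines in these same libraries. Their values by line are therefore given as a description, without a test, while sex, the interaction of line and sex, the relation to RNA metrics and the relation to behavior were tested.

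The rats came from generation F37 of bred high responders (bHRs) and bred low responders (bLRs), which differ in how much they move in an unfamiliar box, a count called the LocoScore. All rats had been tested for this score and on an elevated plus maze and served as founders of a cross, with no drug or other agent given in the labels, and poly(A) RNA of whole hippocampus was sequenced from 6 rats of each line and sex. In the 23 rats used, bHR males were 163 to 165 days old, bLR males 151 to 165, bHR females 190 to 191 and bLR females 188 to 192 by the labels of each rat, whereas the extraction protocol gives a younger range for the study's adults. Males and females were dissected on different days, so sex, age and day of dissection cannot be told apart, whereas both lines were taken on each day. The labels name 12 families with 1 male and 1 female each, although the study's methods speak of distinct families for every rat. A bHR female of RIN 6.3 (family H05), which the labels mark as failing quality control, was left out unless all 24 rats are named.

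Interferons bind surface receptors on nearly all cells and switch on antiviral genes, among them the IFIT proteins, which bind viral RNA, and the IFITM proteins, which sit in membranes and hinder viral entry. Interferon regulatory factors such as IRF3 and IRF7 carry the signal from sensors of nucleic acids to the interferon genes, with IRF3 present in resting cells and IRF7 itself raised by interferon. NF-kB is a family of dimers of Rel proteins, held in the cytoplasm by I kappa B proteins until kinases mark these for destruction; RELB works mainly in the non-canonical arm of the pathway. In the brain these genes are expressed at low levels at rest in neurons, glia and blood vessels.

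The study's tables used here give gene positions for chromosome 1 of Rnor6 alone, and 5 members are placed there. Relb lies at chr1:80517411-80544825 (minus strand), Nfkbib at chr1:86941074-86948845 (minus strand) and Irf3 at chr1:100992405-100997198 (plus strand). Ifitm3 (chr1:213810696-213811901, minus strand) and Irf7 (chr1:214248837-214252456, minus strand) lie close to each other. RefSeq promoters (GRCr8) were at hand for 5 of the 7 listed genes, not for Ifit1 or Relb. An interferon-stimulated response element core, GAAANNGAAA, was searched on both strands in the 250 bases before each start and was held by 3.41% of 33469 promoters. It was found before Ifitm3 and Irf7 but not before Irf3, Nfkbib or Bcl3, and, among the related genes, before Ifit3, Ifitm2 and 1 of 2 Ifit1bl starts but not before Ifitm6 or Ifitm10. The kappa B consensus was held by 3.54% of all promoters, among them those of Irf3 and Bcl3, and was not found before Irf7, Ifitm3 or Nfkbib. The following runs, the 100 bases before each start, are shown because they set the promoters of the interferon-inducible genes beside that of Irf3; capitals mark the response element core in the first 3 and the kappa B match in the last. They were taken at chr1:205541759-205541858 (Ifitm3, minus strand), chr1:205800024-205800123 (Irf7, minus strand), chr1:241527226-241527325 (Ifit3, plus strand) and chr1:104616508-104616607 (Irf3, plus strand).
Ifitm3: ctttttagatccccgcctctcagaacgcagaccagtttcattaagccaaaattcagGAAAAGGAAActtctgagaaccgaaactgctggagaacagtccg
Irf7: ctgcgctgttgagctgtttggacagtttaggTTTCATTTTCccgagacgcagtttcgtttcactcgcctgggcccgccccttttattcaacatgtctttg
Ifit3: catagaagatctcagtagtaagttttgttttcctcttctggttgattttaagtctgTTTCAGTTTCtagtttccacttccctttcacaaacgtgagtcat
Irf3: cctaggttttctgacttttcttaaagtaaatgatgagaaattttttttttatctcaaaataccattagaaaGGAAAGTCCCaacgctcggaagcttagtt
The response element core began 44 bases before the start of Ifitm3, 69 before Irf7 and 44 before Ifit3, and the kappa B match began 29 bases before the start of Irf3. These matches describe the letters of the reference and were not tied to the counts.

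Library totals ran from 16824899 to 28443049 counts. Values below are CPM, counts scaled to the TMM-normalized library total, on which 3 counts correspond to 0.0866 to 0.216 CPM in the 23 libraries, and Log2FC is bLR relative to bHR from a fit with terms for lineage, sex, %rRNA and %intergenic reads. Values within 1 sex come from separate fits with lineage and %rRNA alone, so the value over both sexes need not lie between them. Of 13838 genes past the filter on low counts, 1.34% differed by lineage at FDR < 0.10, 0.773% higher in bLRs and 0.564% higher in bHRs. Levels of different genes are not compared, since the table holds no transcript lengths. In bulk tissue, fewer cells expressing a gene and less of its RNA per cell cannot be told apart. Only 14 of 56 listed cell type markers could be matched and tested: Slc17a7 and Rbfox3, markers of hippocampal neurons, summed to 169 to 922 CPM in bHRs and 180 to 1157 CPM in bLRs. None of the 14 differed by lineage at FDR < 0.10. The microglial markers Itgam and Tyrobp summed to 16.7 to 59.5 CPM in bHRs and 21.4 to 83.4 CPM in bLRs, with 1 of the 2 at an unadjusted p under 0.05 (edgeR). Their part in the values below was not tested.

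Ifit1, an interferon-induced protein that binds viral RNA lacking host cap marks, had 48 or more counts in 10 of 11 bHRs and at most 3 counts in 11 of 12 bLRs, of which 6 were at 0. The bHR males had 1.60 to 4.12 CPM, with a median of 3.05. The 5 bHR females had 0, 2.04, 2.35, 3.87 and 4.05 CPM. The bLR males had 0 CPM in 3 rats and 0.0558, 0.135 and 2.86 CPM in the others, and the bLR females had 0 to 0.102 CPM. The lines thus fell apart except for 2 rats, the bHR female of family H04 with 0 counts and the bLR male of family L09 with 52 counts. A count of 0 in the H04 library allows up to 0.133 CPM (3 counts), while the male of the same family had 3.83 CPM. The female of family L09 had 2 counts.

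The Log2FC of Ifit1 was -3.38 (SE 0.64, 23 rats), -2.59 (SE 0.88) in males and -5.99 (SE 0.96) in females. On the same 23 rats limma-voom gave -4.67 (SE 0.91) and DESeq2 -3.95 (SE 1.01). Without the L09 male it was -5.79 (SE 0.59). Ifit1 passed the filter on low counts only through the bHRs, so a difference was built into its being listed. The bHR female left out for low RIN had 66 counts of Ifit1, 2.88 CPM, within the range of the other bHRs.

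The 2 exceptional rats were compared with their labels at other genes. Apart from Ifit1, 7 genes separated the lines among the other 21 rats, and the H04 female was nearer its own line's mean at 5 of them and the L09 male at 6. At the 7 genes that separated the sexes among the same 21 rats, both were nearer their own sex at all 7. The reason for their Ifit1 values was not tested.

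The other matched IFIT genes did not follow this pattern. Ifit2, which also binds RNA and belongs to the list of pathway genes rather than to the chosen members, was higher in bLRs. It had 3.89 to 5.85 CPM in bHR males (median 5.28) and 4.56, 5.38, 5.44, 6.20 and 7.17 CPM in bHR females. The bLR males had 6.05 to 9.24 CPM (median 7.36) and the bLR females 6.51 to 13.1 CPM (median 7.27). Of the 12 bLRs, 7 lay above every bHR, and 9 of 11 bHRs lay below every bLR. The Log2FC was 0.47 (SE 0.12, FDR = 0.0424, edgeR quasi-likelihood test, Benjamini-Hochberg over all genes tested), a fold of 1.39. The list that holds Ifit2 was drawn up with earlier results of these data known, so the call is not independent evidence. The call was lost without the bHR male of family H02 (Log2FC 0.48, FDR = 0.164) or the bLR male of family L06 (Log2FC 0.39, FDR = 0.165), and with library size in place of TMM (Log2FC 0.47, FDR = 0.109). In males alone the Log2FC was 0.54 (FDR = 0.579) and in females alone 0.48 (FDR = 0.640), neither called. These fits hold fewer rats and called 18 of 13778 genes in males and 8 of 14048 in females. Among these 23 rats the H04 female had the highest bHR value, 7.17 CPM, and the L09 male the lowest bLR value, 6.05 CPM. The bHR female of low RIN had 9.35 CPM, above every other bHR and above most bLRs, and with all 24 rats the Log2FC was 0.45 (SE 0.11, FDR = 0.0257, edgeR).

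Ifit3, a binding partner of Ifit1, averaged 1.56 CPM ± 0.274 (SD, n = 11) in bHRs and 1.82 ± 0.724 (SD, n = 12) in bLRs. Its Log2FC, 0.34 (SE 0.20), did not pass the test (FDR = 0.624, edgeR). Ifit1bl, an Ifit1-like copy, averaged 1.64 CPM ± 0.429 (SD, n = 11) in bHRs and 1.63 ± 0.303 (SD, n = 12) in bLRs (Log2FC 0.08, SE 0.15, FDR = 0.905, same test). The H04 female had 1.55 CPM of Ifit1bl and 1.77 CPM of Ifit3, and the L09 male 1.65 and 2.31 CPM, within the ranges of their subgroups. Because only uniquely placed reads were counted, values of these related copies are uncertain where their sequences are shared.

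**Figure D1:**
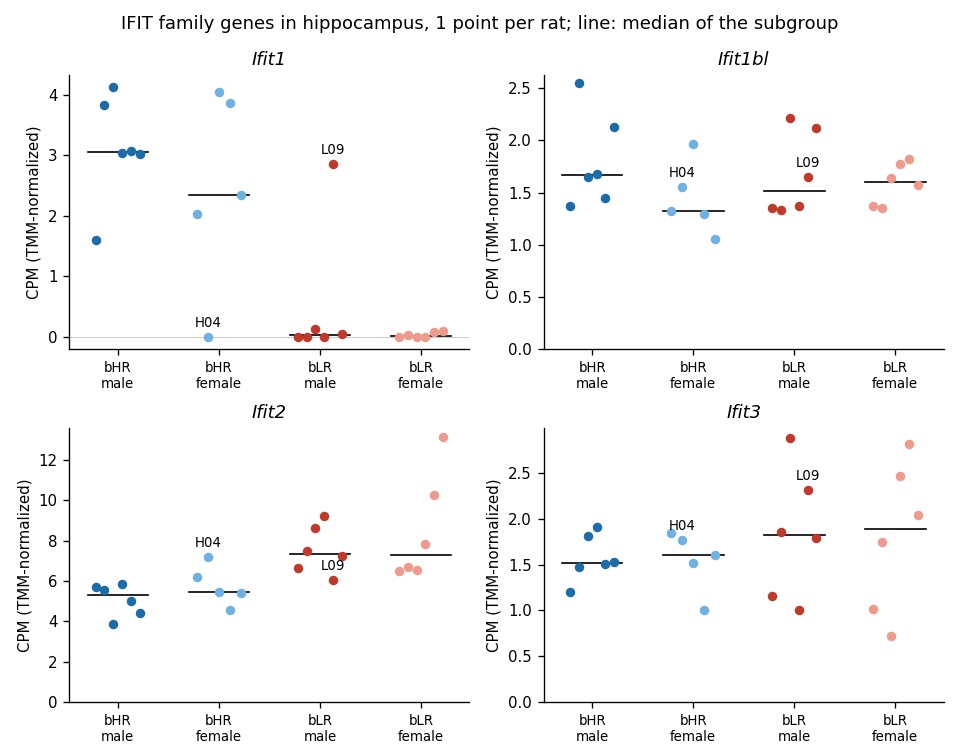
TMM-normalized CPM of Ifit1, Ifit1bl, Ifit2 and Ifit3 in each of 23 rats (points) by line and sex, with the median of each subgroup as a line and the H04 female and L09 male labelled by family. Ifit1 separates the lines except in these 2 rats, at 0 and 2.86 CPM, while 7 of 12 bLRs lie above every bHR for Ifit2.

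Ifitm3, which blocks viral entry at the endosome, overlapped widely between the lines. The bHR males had 4.04 to 8.44 CPM (median 7.25) and the bHR females 3.94, 4.74, 5.68, 7.02 and 8.28 CPM. In bLR males it ran from 2.81 to 6.55 CPM (median 4.74) and the bLR females 4.42 to 8.31 CPM (median 5.82). The bLR males were the lowest subgroup, and the bLR females sat level with the bHR females. The Log2FC was -0.10 (SE 0.17) over both sexes, -0.45 (SE 0.22) in males and 0.06 (SE 0.23) in females.

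The other matched IFITM genes also overlapped, and none of the 4 passed the test for lineage. Ifitm1, a relative that acts at the cell surface, had the largest difference of them, 0.956 CPM ± 0.476 (SD, n = 11) in bHRs and 1.44 ± 0.691 (SD, n = 12) in bLRs (Log2FC 0.64, SE 0.26, FDR = 0.356, edgeR). Ifitm2 had a Log2FC of 0.26 (SE 0.16, FDR = 0.642), Ifitm6 of -0.09 (SE 0.16, FDR = 0.898) and Ifitm10 of 0.0017 (SE 0.12, FDR = 0.997), all from the same edgeR fit.

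Irf3, the factor that resting cells hold ready to start interferon transcription, was alike in level in the lines and spread more among females than among males. In bHR males it ran from 26.8 to 40.6 CPM (median 34.9) and the bHR females 14.2, 18.4, 27.1, 32.5 and 43.8 CPM. In bLR males it ran from 28.8 to 42.0 CPM (median 34.7) and the bLR females 17.8 to 46.0 CPM (median 29.2). The lines covered nearly the same range. The Log2FC was -0.0053 (SE 0.12), 0.04 (SE 0.14) in males and 0.10 (SE 0.15) in females.

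Irf7, the factor that interferon itself raises to amplify the response, had its highest values in bLRs of families L09 and L10. The bHR males had 4.04 to 7.17 CPM (median 5.09) and the bHR females 2.92, 3.84, 3.95, 4.20 and 4.75 CPM. The bLR males had 3.97 to 7.43 CPM (median 4.84) and the bLR females 3.82 to 9.51 CPM (median 5.02). The 3 rats above every bHR were the L10 female (9.51 CPM), the L09 female (7.76 CPM) and the L09 male (7.43 CPM). The Log2FC was 0.22 (SE 0.17), -0.03 (SE 0.20) in males and 0.46 (SE 0.23) in females.

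Relb, the Rel subunit that pairs with p52 in the non-canonical NF-kB arm, had higher values in bLRs. The bHR males had 1.74 to 2.12 CPM (median 1.90), and the bHR females had 1.44, 1.90, 2.17, 2.17 and 2.30 CPM. The bLR males had 2.03 to 3.41 CPM (median 2.97) and the bLR females 2.23 to 4.07 CPM (median 2.48). The lines overlapped at their edges: 9 of 12 bLRs lay above every bHR and 7 of 11 bHRs lay below every bLR. These values rest on 30 to 67 counts per library in bHRs and 42 to 80 in bLRs. The Log2FC was 0.47 (SE 0.13), a fold of 1.39, with 0.53 (SE 0.18) in males and 0.39 (SE 0.21) in females. The bHR female of low RIN had 2.75 CPM, above the other bHRs.

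The Rel subunits matched beside Relb did not pass the test for lineage. Rela, the p65 subunit of the canonical arm, had 4.83 CPM ± 1.68 (SD, n = 11) in bHRs and 6.07 ± 2.21 (SD, n = 12) in bLRs (Log2FC 0.12, SE 0.14, FDR = 0.837, edgeR). Within 1 sex its Log2FC was larger, 0.41 (SE 0.29) in males and 0.35 (SE 0.26) in females. Of the 12 bLRs, 5 lay above every bHR for Rela, and 0 of 11 bHRs lay below every bLR. Nfkb2, the precursor of the p52 partner of RELB, had 1.71 CPM ± 0.483 (SD, n = 11) in bHRs and 1.65 ± 0.449 (SD, n = 12) in bLRs (Log2FC -0.13, SE 0.15, FDR = 0.834, edgeR).

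Nfkbib, which encodes the inhibitor I kappa B beta, spread widely in every subgroup. The bHR males had 7.91 to 13.2 CPM (median 10.2) and the bHR females 7.40, 8.36, 9.27, 9.74 and 12.2 CPM. The bLR males had 4.11 to 10.8 CPM (median 9.15) and the bLR females 5.80 to 12.2 CPM (median 8.35). The lowest 5 values were all in bLRs, and the lines overlapped above them. The Log2FC was -0.06 (SE 0.11), -0.21 (SE 0.16) in males and -0.11 (SE 0.18) in females.

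**Figure D2:**
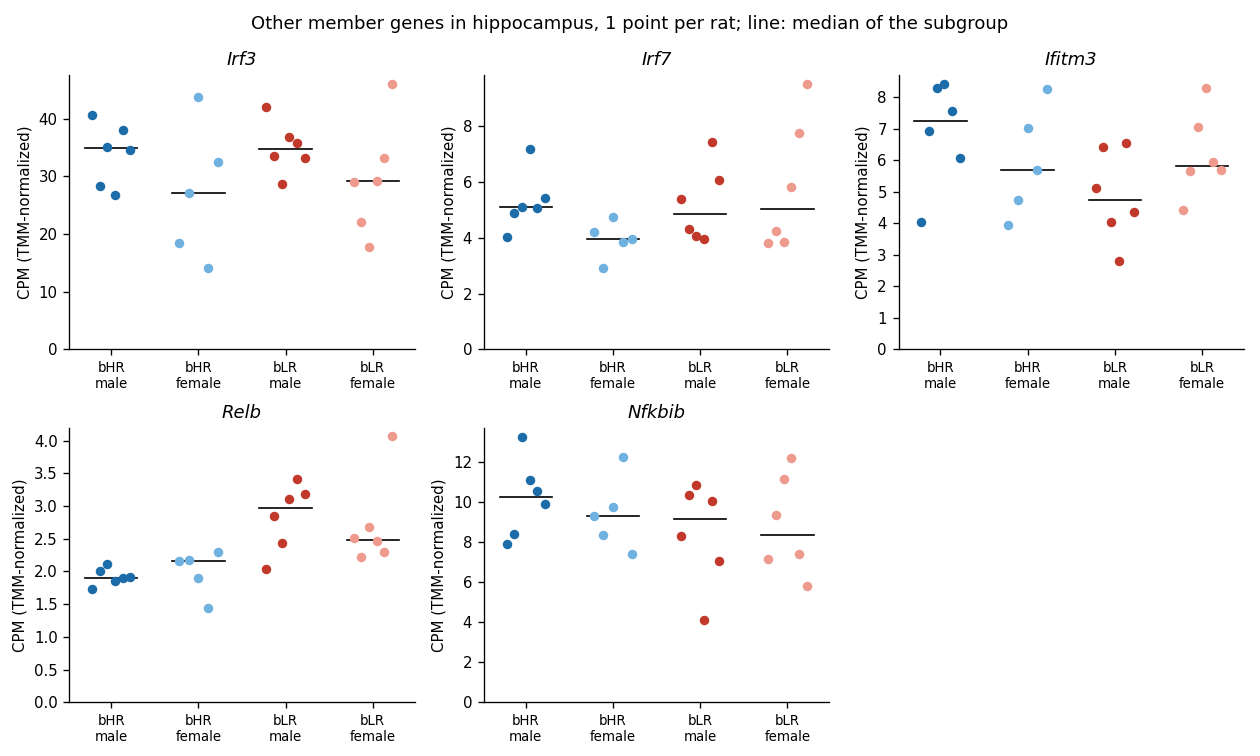
TMM-normalized CPM of Irf3, Irf7, Ifitm3, Relb and Nfkbib in each of 23 rats (points) by line and sex, with the median of each subgroup as a line. For Relb, 9 of 12 bLRs lie above every bHR, whereas the other 4 genes overlap across most of their range.

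The wider pathways were read through the list genes whose identifiers carry a symbol in the study's tables, which name 1977 genes in all. Of 104 genes on the interferon list, 21 were matched and all 21 were tested. Of the 17 that are not members, 1 (Ifit2) passed for lineage, higher in bLRs, against 1.34% of all genes tested. Their median Log2FC was 0.09, beside -0.0035 over all 13838 genes, and 14 of 17 lay above 0 beside 49.0% of all genes. At an unadjusted p under 0.05 there were 3 of these 17, and 9.96% of all genes. Ch25h, an interferon-induced enzyme that makes an oxysterol, was the nearest to Ifit2 in size (Log2FC 0.45, SE 0.31, FDR = 0.682, edgeR). Unc93b1, which carries nucleic acid-sensing Toll-like receptors to endosomes, had a Log2FC of 0.23 (SE 0.09, FDR = 0.334, edgeR).

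Of 66 genes on the NF-kB list, 12 were matched and tested. None of the 10 that are not members passed for lineage in the edgeR fit, and none was at an unadjusted p under 0.05. limma-voom and DESeq2 also called none of them. Their median Log2FC was -0.14, with 4 of 10 above 0. The lowest was Tnfaip3, which encodes the inhibitor A20 and is itself an NF-kB target (Log2FC -0.30, SE 0.23, FDR = 0.736, edgeR), and the highest was Relt, a receptor of the tumor necrosis factor family (Log2FC 0.21, SE 0.13, FDR = 0.662, edgeR). Chuk, the kinase IKK alpha that drives the non-canonical arm, had a Log2FC of -0.14 (SE 0.09, FDR = 0.641, edgeR).

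**Figure D3:**
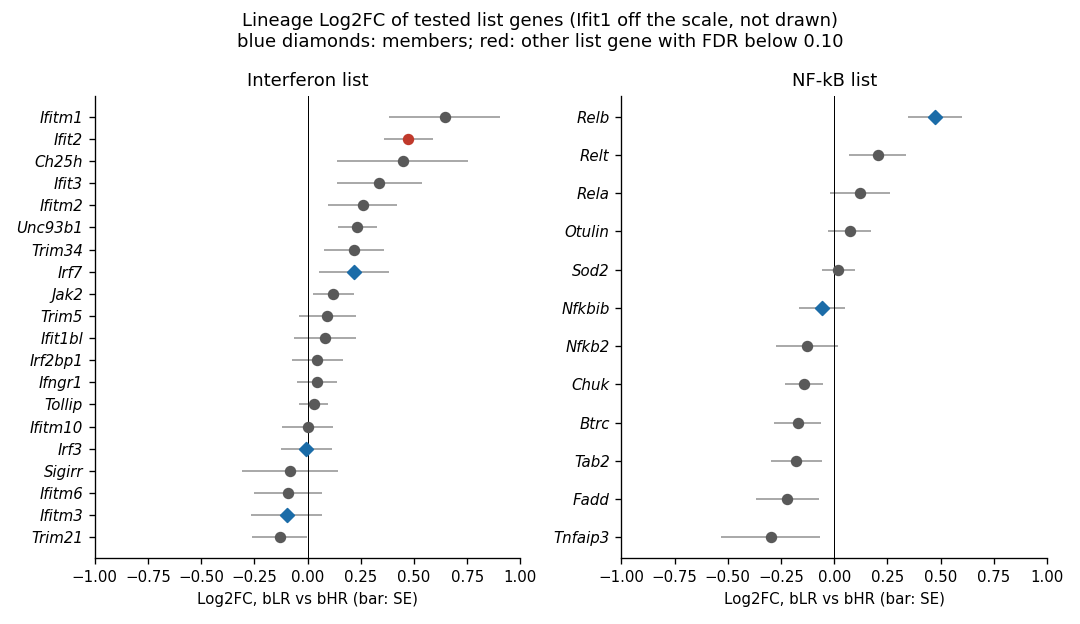
Lineage Log2FC (bLR vs bHR, x axis) with its SE (bars) for the tested genes of the interferon and NF-kB lists, members as blue diamonds. Ifit1, at -3.38, is beyond the axis and not drawn; Ifit2, at 0.47, is the list gene outside the members with FDR below 0.10 (red).

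The sex contrast, which was not used to choose the members, asked whether the genes differ between females and males. Over all genes 0.354% passed at FDR < 0.10, and 0 of the 5 members other than Ifit1 did. None of the 5 was at an unadjusted p under 0.05 in the edgeR fit, beside 11.2% of all genes. limma-voom and DESeq2 called none of the 5. Ifit1 passed the filter only through the bHRs, so its sex value is given as a description. Its Log2FC (female relative to male) was -1.16 (SE 0.62), with group means of 1.14 CPM ± 1.64 (SD, n = 11) in females and 1.81 ± 1.67 (SD, n = 12) in males. It was -0.39 without the L09 male and -1.90 without the bHR female of family H08. Irf3 followed at -0.23 (SE 0.11, FDR = 0.447, edgeR), with 28.5 CPM ± 10.2 (SD, n = 11) in females and 34.5 ± 4.73 (SD, n = 12) in males. Nfkbib had -0.12 (SE 0.10, FDR = 0.655), Irf7 -0.06 (SE 0.16, FDR = 0.898), Ifitm3 0.05 (SE 0.16, FDR = 0.922) and Relb 0.04 (SE 0.12, FDR = 0.924), all from the same edgeR fit. None of the other list genes passed either. The samples of the 2 sexes did differ in all 5 erythroid markers, which summed to 814 to 5495 CPM in males and 58.1 to 1177 CPM in females. The part of this difference in the members' values was not tested. Some symbols were paired through the study's list of genes called for sex, which favored the matching of markers that differ by sex. That all 5 differ is therefore partly built in.

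The interaction term asked whether the lineage difference depended on sex. No gene in the table passed at FDR < 0.10 (0% of 13838), and none of the 5 members other than Ifit1 had an unadjusted p under 0.05 in the edgeR fit, beside 2.35% of all genes. Ifit1 was listed only through the bHRs, so its term is given as a description. limma-voom and DESeq2 called 0 of 13838 genes as well. For Ifit1 the difference of the lineage Log2FC, females minus males, was -3.31 (SE 1.60). Without the L09 male it was 0.15 (SE 2.20), and limma-voom on all 23 rats gave 0.27 (SE 1.69), so its direction held neither without that rat nor under that method. Irf7 had an interaction of 0.56 (SE 0.30) and Ifitm3 of 0.54 (SE 0.33), neither past the threshold.

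**Figure D4:**
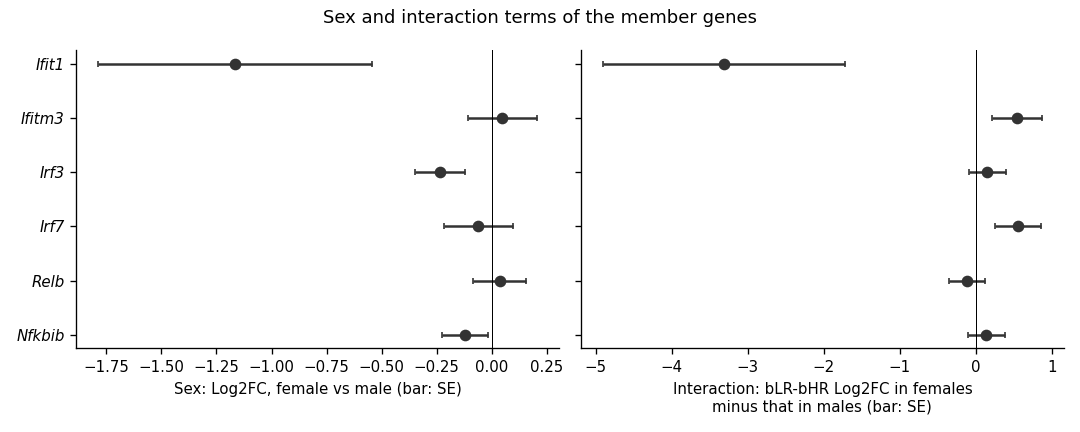
Sex Log2FC (left, female vs male) and interaction of lineage and sex (right, lineage Log2FC in females minus that in males) of the 6 member genes, with SE as bars. None of the 5 other than Ifit1 passed FDR < 0.10 for sex or for the interaction. Ifit1 is drawn as a description and has the widest bars (SE 0.62 and 1.60).

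Whether the members rose and fell together among rats of the same line and sex was tested on log2 CPM (prior count 2) with subgroup means subtracted. Of 15 pairs, none passed an adjusted p under 0.10 (permutation test, 100000 permutations, two-sided, Benjamini-Hochberg over the 15). The highest correlation over 23 rats was between Ifitm3 and Nfkbib (r = 0.587, rho = 0.490, permutation p = 0.00675, adjusted p = 0.101 for r). Without the 2 rats farthest from the median of Ifitm3 it was 0.470, and it was 0.771 in the 12 males and 0.306 in the 11 females. Ifitm3 and Irf7, which lie near each other and hold the same response element core, had r = 0.381 (rho = 0.383, adjusted permutation p = 0.270). Within the 11 bHRs, Ifit1 and Irf7 had r = 0.645 (rho = 0.5, adjusted permutation p = 0.130), which became -0.09 once the 2 rats with the most extreme Ifit1 were set aside. Irf3 and Nfkbib were opposed (r = -0.442, rho = -0.493, adjusted permutation p = 0.130), and with %rRNA and %intergenic regressed out the sign turned to r = 0.310.

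Of 18 relations to %rRNA, %intergenic and RIN, 2 passed. Irf3 rose with %rRNA (r = 0.717, rho = 0.634, adjusted permutation p = 0.0112 for r and 0.0508 for rho, 23 rats), and Nfkbib fell with it (r = -0.704, rho = -0.627, adjusted permutation p = 0.0112 and 0.0508). For Irf3 r was 0.921 in the 11 females and 0.068 in the 12 males; the difference between these values was not tested. The bHR females of families H02 and H11, both with 1.23% rRNA, had 18.4 and 14.2 CPM of Irf3, and the H08 female with 3.63% had 43.8 CPM. For Nfkbib r was -0.829 in males and -0.650 in females. Without the 2 rats farthest from the median of %rRNA, r was 0.712 for Irf3 and -0.487 for Nfkbib, and neither kept an adjusted p under 0.10 (0.138 and 0.337, permutation), so neither call was kept, although r for Irf3 barely moved. The line medians of %rRNA were 2.26% in bHRs and 2.35% in bLRs, and the lineage Log2FC given above includes %rRNA as a term. RIN passed with none of the members. The study reports that %rRNA was strongly related to the main component of variation in these libraries. The share of all genes that would pass the same test was not computed, so the relations cannot be called particular to these members.

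LocoScore, the sum of lateral and rearing movements counted by beam breaks in an unfamiliar box, was set against the members within each line. It ran from 1533 to 2949 in the 11 bHRs and from 23 to 101 in the 12 bLRs, so no correlation was taken across the lines. Of 11 relations, 1 passed: Irf7 rose with LocoScore in bLRs (r = 0.769, rho = 0.676, sex means subtracted, adjusted permutation p = 0.0201 for r and 0.0803 for rho, n = 12). It was 0.830 in the 6 males and 0.852 in the 6 females. The 4 bLRs with the highest Irf7 were both rats of family L09 (LocoScores of 101 in the male and 69 in the female) and both of family L10 (66 and 54), which also had the 4 highest LocoScores. Points that share a labelled family may not be independent. The LocoScore relations were not adjusted for RNA metrics, and Irf7 had r = 0.407 with %rRNA over 23 rats (adjusted permutation p = 0.281). The share of all genes that would pass the same test was not computed. Without the 2 rats farthest from the median LocoScore r was 0.703 with an adjusted permutation p of 0.133, so the call was not kept with 10 rats. In bHRs the relation of Irf7 to LocoScore was r = -0.357 (rho = -0.473, adjusted permutation p = 0.553, n = 11), or r = -0.796 (adjusted permutation p = 0.133) with the 2 most extreme LocoScores set aside, and the difference between the lines was not tested. Relb in bLRs had r = 0.471 (rho = 0.480, adjusted permutation p = 0.553, n = 12).

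**Figure D5:**
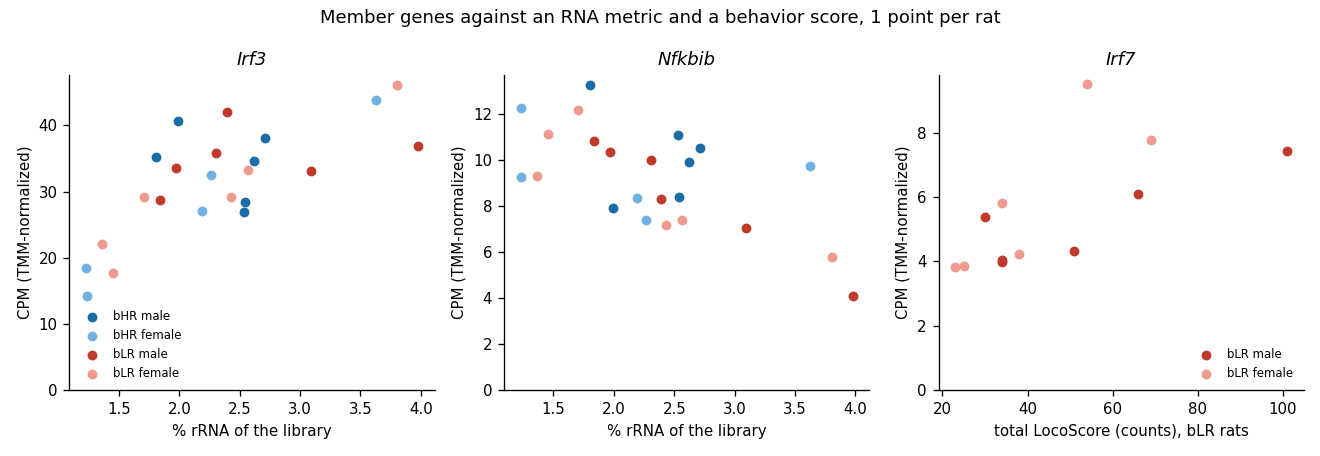
TMM-normalized CPM of Irf3 and Nfkbib against %rRNA in 23 rats, and of Irf7 against total LocoScore in 12 bLRs, 1 point per rat colored by line and sex. Irf3 rises (r = 0.717) and Nfkbib falls (r = -0.704) with %rRNA, and the 4 bLRs with the highest LocoScores, 54 to 101, have the highest Irf7.

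Among all tested genes, those whose values followed each member most closely across the 23 rats were mostly genes with no symbol in the sources used. With subgroup means subtracted, the 3 closest to Nfkbib had r of 0.933 to 0.944 and the 3 closest to Irf3 had r of 0.907 to 0.920. Those of Ifitm3 had r of 0.774 to 0.812 and included Psenen, a subunit of gamma-secretase (r = 0.788). For Relb they were 0.702 to 0.734, for Irf7 0.676 to 0.695 and for Ifit1 0.559 to 0.640. Without subtraction, so that the difference between the lines counts, the 3 closest to Ifit1 had r of 0.719 to 0.750. These are descriptions over rats that share subgroups and RNA quality.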

How the data were processed

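Hippocampal poly(A) RNA of 24 rats was measured. The authors aligned reads with STAR 2.7.3a (unique hits, Rnor6) and deposited raw gene counts made with Subread 2.0.0 in strand-specific mode (Ensembl annotation). From these counts, genes with at least 1 CPM in 25% of the rats were tested with edgeR 4.0.16 (R 4.3.3; TMM, quasi-likelihood) in 23 rats, with terms lineage, sex, %rRNA and %intergenic, or lineage, sex, %rRNA and their lineage by sex interaction. FDR < 0.10 was the threshold over all genes. limma 3.58.1 (voom) and DESeq2 1.42.0 were alternatives. Identifiers were paired with symbols only through name columns of the study's tables (1977 genes), among them a list of genes that the study called for sex. Scripts were tested on simulated data. Members and lists were chosen with earlier results of these data known. Named genes were the members, list genes called for lineage or sex, the IFIT and IFITM families, NF-kB subunits and I kappa B proteins, and the 3 genes closest to each member. Ch25h, Unc93b1, Tnfaip3, Relt and Chuk fell outside that rule and were named after their values were seen. The labels do not say whether rats of a family are litter mates. Floors of 3 counts cover counting error only.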

Additional observations from a re-analysis of the deposited data

Results flagged for a closer look

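In 15 genes (the members, the IFIT and IFITM families, Rela and Nfkb2) and 4 subgroups, 60 sets of 5 or 6 rats were screened for a value far from the rest, and 4 were found; chance gives about 1 in 20. Ifit1 in the bLR male of family L09 was 2.86 CPM, while the other 5 bLR males had 0 to 0.135 CPM. Relb in the bLR female of family L10 was 4.07 CPM, while the others of its subgroup had 2.23 to 2.69 CPM. Nfkb2 in the bLR male of family L03 was 2.33 CPM, beside 1.08 to 1.45 CPM. Rela in the bHR male of family H02 was 7.51 CPM, beside 3.18 to 4.54 CPM. The causes were not tested.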

How the results depend on the processing

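Of the members' lineage Log2FCs, that of Ifit1 moved most: -5.99 in females alone, and -5.79 to -3.08 with each rat left out, the extreme without the L09 male. The others ranged with each rat left out from -0.19 to -0.0135 for Ifitm3, -0.0578 to 0.0944 for Irf3, 0.14 to 0.28 for Irf7, 0.42 to 0.52 for Relb and -0.0981 to 0.0113 for Nfkbib. Across the other alternatives, single-sex fits included, Ifitm3 ran from -0.45 to 0.06, Irf3 from -0.05 to 0.10 and Irf7 from -0.03 to 0.46. Relb ran from 0.39 to 0.53 and Nfkbib from -0.21 to -0.03. The count of interferon list genes called fell from 1 to 0 with library size alone, in males alone and in females alone, and was 0 to 1 with each rat left out. Over all genes the single-sex fits called 18 in males and 8 in females. No NF-kB list gene outside the members and no member for sex was called under any alternative, and no gene at all was called for the interaction. The sex Log2FC of Ifit1 was -1.90 to -0.39 with each rat left out. Uncalled signs turned as follows. For sex, Relb was -0.0108 with no technical covariates and -0.0584 to 0.11 with each rat left out, Ifitm3 -0.0197 to 0.14 and Irf7 -0.20 to 0.0438. For the interaction, Ifit1 was 0.27 with limma-voom and -3.78 to 0.15 with each rat left out, Irf3 -0.0186 to 0.21 and Nfkbib -0.0027 to 0.34. Member pairs called were 2 in males alone (Ifitm3 with Nfkbib, Ifit1 with Relb) and 1 with all 24 rats. RNA metric relations called were 3 with all 24 rats, 0 in males alone, 1 in females alone (Irf3 with %rRNA) and 0 without the 2 rats farthest from the median. LocoScore relations called were 0 in males alone, in females alone and without the 2 farthest rats, alternatives chosen after seeing the data, as were the correlations with RNA metrics regressed out and those without the H04 female. Family as a replicate block (11 pairs) gave sex Log2FCs of -0.93 for Ifit1, 0.0512 for Ifitm3, -0.13 for Irf3 and Irf7, 0.10 for Relb and -0.0823 for Nfkbib, and called 0 members; deviations of same-family rats correlated over genes at -0.72 to 0.78, above 0.1 in 6 of 11 pairs, so the families were not taken as pairs. Among the members, Ifit1 in bLRs and Relb have the lowest counts.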
